A study of Mus musculus with 39 samples.

Results

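The genes of the epithelial to mesenchymal transition (EMT) examined were the classical epithelial cadherin *Cdh1* (E-cadherin), its mesenchymal counterpart *Cdh2* (N-cadherin), the intermediate filament gene *Vim* (vimentin), the matrix gene *Fn1* (fibronectin) and the transcription factors *Snai1*, *Snai2*, *Zeb1*, *Zeb2*, *Twist1* and *Twist2*. They were taken by symbol from the list of genes counted, and all 10 were found, each listed once among 47643 genes. Counts came from RNA of single mouse epiblasts, dissected between embryonic day (E) 5.5 and E7.5 from crosses of *Stat3* heterozygous mice on a CD1 background and freed by hand from extraembryonic ectoderm and visceral endoderm. The E5.5 epiblasts comprised 4 *Stat3* null and 2 wild type (WT), those of E6.5 were 8 null with 9 WT, and those of E7.5 were 3 null with 9 WT. Epiblast stem cells (EpiSCs), primed pluripotent lines grown from E6.5 or E7.5 epiblasts in FGF2, Activin A and the tankyrase inhibitor XAV-939 on fibronectin, gave 2 null lines (2 and 6) and 2 WT lines (8 and 13), with 1 library each. The null allele has some *Stat3* exons replaced by a neomycin resistance gene in every cell of the embryo, while the remaining exons could still yield counts. The stage each EpiSC line came from is not given in the sources used here.

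At gastrulation, cells of the epiblast epithelium pass through the primitive streak and leave it as migratory mesoderm. In this transition Snail, ZEB and Twist proteins bind E-box sequences and repress epithelial genes, *Cdh1* among them, while N-cadherin, vimentin and fibronectin accompany the mesenchymal state. FGF, Nodal and WNT signals act upstream, and *Snai1* is required for mesoderm cells to lose E-cadherin in the mouse embryo.

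The letters CACCTG, an E-box of the kind that Snail and ZEB proteins bind, were searched on both strands (reverse complement CAGGTG, no overlap with another motif searched) in RefSeq promoter windows of 300 bases on GRCm38.p6, from 250 bases before to 50 after a transcription start. Windows were found for 5 of the 10 genes (*Snai1*, *Twist1*, *Twist2*, *Vim* and *Zeb2*). Of 32851 promoters of this length, 6640 (20.2%) held the letters. Among the 5 genes they were found once, 126 bases upstream of the start of *Snai1*. The upstream 250 bases are shown for *Snai1*, which had counts in every epiblast, and for *Twist1*, the member that was called between genotypes below, 5′ to 3′ with the E-box in capitals. The first lies at chr2:167537945-167538194 and the second at chr12:33957421-33957670, both on the plus strand.
*Snai1*: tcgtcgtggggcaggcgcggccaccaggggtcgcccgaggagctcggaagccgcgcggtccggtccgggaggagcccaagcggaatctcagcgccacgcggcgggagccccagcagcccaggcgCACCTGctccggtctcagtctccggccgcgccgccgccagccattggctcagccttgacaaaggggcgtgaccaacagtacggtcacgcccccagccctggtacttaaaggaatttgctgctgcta
*Twist1*: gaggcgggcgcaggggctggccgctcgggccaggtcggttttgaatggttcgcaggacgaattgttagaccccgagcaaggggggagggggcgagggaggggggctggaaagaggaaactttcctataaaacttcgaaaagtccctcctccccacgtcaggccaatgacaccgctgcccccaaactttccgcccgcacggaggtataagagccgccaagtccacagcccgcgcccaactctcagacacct

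Levels are given in CPM, a gene's counts scaled to the size of its library after TMM normalisation, where a count of 0 leaves room for 3 counts, or 0.131 CPM in the smallest epiblast library. Library totals ran from 22941210 to 79013960 counts in epiblasts and from 63445877 to 127583699 in EpiSCs. 4 epiblast libraries, set apart in earlier results of these data, were also left out together. E5.5 null 1 had 0.662 CPM of the epiblast gene *Pou5f1*, whereas every other E5.5 library had 99.3 CPM or more. E6.5 null 1 held 937 CPM of 10 extraembryonic ectoderm markers, against at most 59.5 CPM in each other E6.5 library. E6.5 WT 3 held 5603 CPM of 10 visceral endoderm markers, the most among E6.5 WT libraries, although E6.5 null 3, 4 and 8, which were kept, held 4069 to 6425 CPM. E7.5 WT 3 had 5.53 CPM of the primitive streak gene *T*, against at least 76.1 CPM in the other 8 E7.5 WT libraries. *Stat3* itself had log2 fold changes, null against WT, of -1.41 (E5.5), -1.60 (E6.5) and -3.31 (E7.5), with adjusted p of 0.999, 0.334 and 0.00808. In EpiSCs it differed by -2.62 (adjusted p = 0.00706). All p-values below came from the quasi-likelihood test of edgeR unless another tool is named, and were adjusted over all genes tested.

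At E5.5 and E6.5 the WT epiblast expressed *Cdh1* far above the other EMT genes. Per kilobase of exon, the scale on which genes can be compared, *Cdh1* was at 151 ± 28.6 CPM per kb (SD, n = 2) at E5.5 and at 149 ± 14.3 CPM per kb (SD, n = 9) at E6.5. *Fn1* came next at E6.5 with 22.8 ± 5.43 CPM per kb, and differed from both neighbours in this order by more than the larger SD. *Snai1*, *Vim*, *Cdh2* and *Twist1* followed, from 6.07 down to 2.12 CPM per kb, with no neighbours in this order separated by that measure. *Zeb2*, *Zeb1*, *Twist2* and *Snai2* were all at or below 0.432 CPM per kb. *Snai2* had no count in 6 of the 9 E6.5 WT libraries.

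From E5.5 to E6.5 none of the 9 EMT genes tested was called in WT epiblasts by edgeR, where a call needs an absolute log2 fold change over 1 and an adjusted p under 0.05 over all genes tested (5.15% of 20763 genes were called). At an unadjusted p under 0.05 there were 3 genes, *Fn1*, *Zeb2* and *Twist1*, beside 4772 of all 20763 genes. DESeq2 called 2 (9.32% of all genes), *Zeb1* and *Zeb2*, and limma voom with sample quality weights called 2 (10.3%), *Zeb1* and *Twist1*. *Fn1* was at 88.8 and 184 CPM in the 2 E5.5 WT epiblasts and between 195 and 360 CPM, with a median of 253, in the 9 of E6.5. These groups did not overlap, but the log2 fold change of 0.99 (SE 0.30) had an adjusted p of 0.0565. *Twist1* was at 9.14 and 10.7 CPM at E5.5 and between 1.03 and 9.03 CPM, with a median of 3.19, at E6.5, so that here too every E5.5 library lay above every E6.5 library (log2 fold change -1.51, SE 0.59, adjusted p = 0.135). *Zeb2* was at 1.17 and 0.911 CPM at E5.5 and spread from 0.223 to 16.5 CPM at E6.5 (log2 fold change 3.08, SE 1.32, adjusted p = 0.181). Leaving out 1 library gave a call for *Fn1* and *Vim* (E5.5 WT 2, adjusted p = 0.0228 and 0.0234), *Zeb1* (E6.5 WT 3, 0.0471), and *Zeb2* and *Twist1* (E6.5 WT 1, 0.0461 and 0.0318). Without E5.5 WT 2 the E5.5 group is 1 library, assumed to vary like those of E6.5. The 10 visceral endoderm markers summed to 5286 and 6697 CPM at E5.5 WT, with none called. At E6.5 WT they summed to 48.1 to 5603 CPM, with a median of 159. Of 10 extraembryonic ectoderm markers 3 were called lower at E6.5, and of 9 epiblast markers 2 were called higher. The part of other cell types in the EMT values was not tested.

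The 9 E6.5 WT epiblasts were not alike in their EMT regulators. In E6.5 WT 1, 2 and 3, the libraries with over 40000000 counts, *Snai1* was at 1.43, 3.51 and 4.80 CPM, *Zeb2* at 0.223, 2.11 and 2.03 CPM and *T* at 0, 1.34 and 0 CPM. In the other 6, all with fewer counts, *Snai1* lay between 6.36 and 22.3 CPM, *Zeb2* between 4.99 and 16.5 CPM and *T*, the brachyury gene of the primitive streak, between 3.96 and 57.8 CPM. The highest *Snai1* and the highest *T* were found in the same library, E6.5 WT 8. Depth and these levels therefore moved together within E6.5 WT and cannot be told apart. *Vim*, by contrast, stayed between 21.5 and 37.3 CPM in all 9, and *Cdh1* between 610 and 815 CPM.

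**Figure D1:**
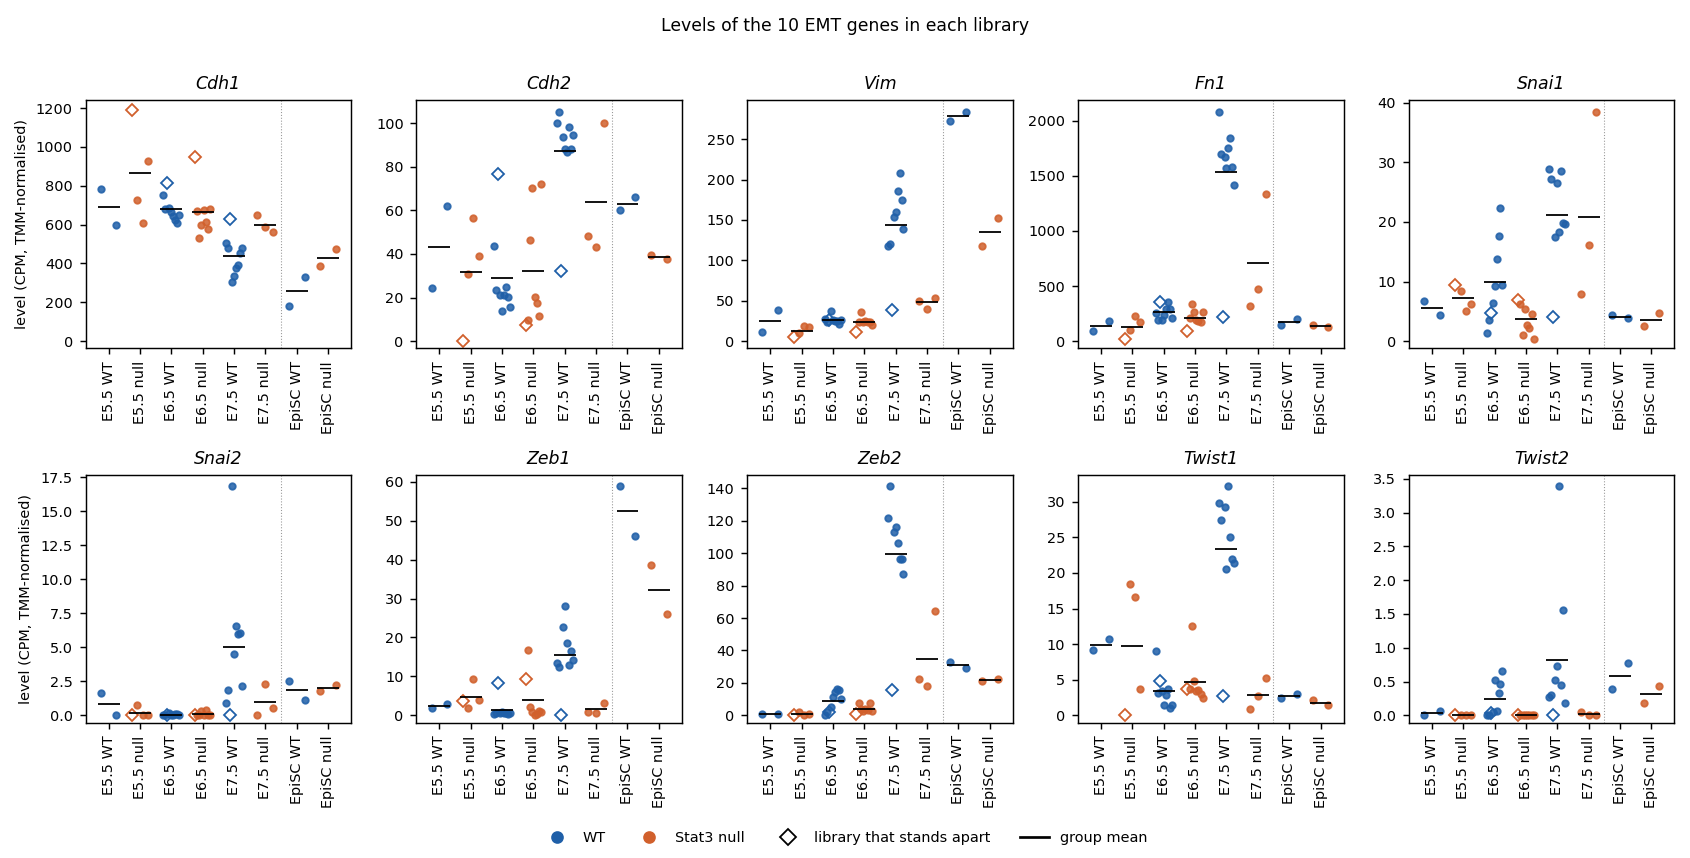
Level of each of the 10 EMT genes (vertical axes, CPM after TMM normalisation, a scale of its own per gene) in every library by stage and genotype, with WT in blue, *Stat3* null in orange, group means as black bars and the 4 libraries that stand apart as open diamonds; EpiSCs, right of the dotted line, came from another table and kit. *Vim*, *Fn1*, *Zeb2* and *Twist1* of 8 E7.5 WT epiblasts lay above every E6.5 epiblast, with E7.5 WT 3 far below the other 8, and the 3 E7.5 null epiblasts lay below those 8 in *Vim* (40.3 to 54.0 against 117 to 209 CPM).

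Between E6.5 and E7.5 the WT epiblast gained *Cdh2*, *Vim* and *Fn1* together with the regulators *Zeb1*, *Zeb2* and *Twist1*, while *Cdh1* fell by less than the fold of a call. Of the 9 EMT genes tested, 6 were called, all higher at E7.5, against 8.83% of all 17191 genes (1518 calls, 987 higher). Their median log2 fold change over the 9 was 2.45, beside 0.01 over all genes tested. In bulk samples such as these, a change in the number of cells of a type and a change in RNA per cell cannot be told apart.

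*Vim* was at 26.6 ± 4.38 CPM (SD, n = 9) at E6.5 and at 144 ± 49.7 CPM (SD, n = 9) at E7.5, and every E7.5 library lay above every E6.5 library (log2 fold change 2.45, SE 0.22, adjusted p = 2.38e-06). *Fn1* lay between 195 and 360 CPM at E6.5 and, apart from 221 CPM in E7.5 WT 3, between 1415 and 2083 CPM at E7.5 (log2 fold change 2.54, SE 0.29, adjusted p = 2.00e-05). It thereby became the most abundant of the 10 genes per kilobase, at 132 ± 45.2 CPM per kb (SD, n = 9), above *Cdh1* at 96.3 ± 21.9 CPM per kb by less than its SD. *Cdh2* rose from 28.9 ± 19.9 to 87.4 ± 21.6 CPM (SD, n = 9 each; log2 fold change 1.61, SE 0.31, adjusted p = 8.50e-04). With all 35 epiblast libraries in 1 fit the *Cdh2* call was lost (adjusted p = 0.0518).

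*Cdh1* itself fell by 0.62 on the log2 scale (SE 0.11, adjusted p = 2.47e-04), which passed the test but not the fold a call needs. Its range at E7.5 WT was 306 to 631 CPM, with a median of 454, and overlapped the 610 to 815 CPM of E6.5 only through E7.5 WT 3. The E7.5 WT epiblasts thus held *Cdh1* and *Cdh2* transcripts together, with 0.212 ± 0.0705 CPM of *Cdh2* per CPM of *Cdh1* (SD, n = 9), where E6.5 WT had 0.0408 ± 0.0226 (SD, n = 9). Without E7.5 WT 3, whose ratio was 0.0510, the lowest ratio at E7.5 WT was 0.194, above the highest of E6.5 WT (0.0943).

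**Figure D2:**
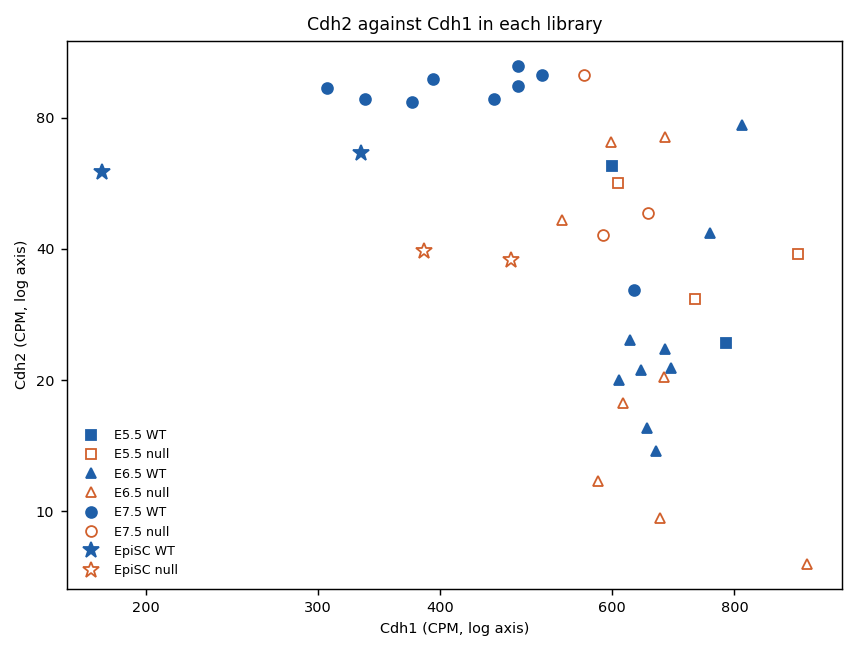
*Cdh2* (vertical) against *Cdh1* (horizontal) in each library, both in CPM on log axes; symbols give the stage, filled blue marks WT, open orange marks *Stat3* null, and E5.5 null 1, with no *Cdh2* count, is not drawn. The 8 E7.5 WT epiblasts at the upper left had *Cdh1* between 306 and 508 CPM and *Cdh2* between 86.6 and 105 CPM, and E7.5 null 3 had as much *Cdh2* (100 CPM) with more *Cdh1* (561 CPM).

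Among the transcription factors, both ZEB genes and *Twist1* were called. *Zeb2*, a repressor that binds E-boxes through paired zinc fingers, went from 8.62 ± 6.38 CPM to 99.3 ± 35.2 CPM (SD, n = 9 each; log2 fold change 3.54, SE 0.61, adjusted p = 4.74e-04). *Zeb1*, its paralog, was at a median of 0.631 CPM at E6.5, with 8.23 CPM in E6.5 WT 3, and at a median of 14.1 CPM at E7.5, with 0.154 CPM in E7.5 WT 3 (log2 fold change 3.41, SE 0.75, adjusted p = 0.00258). *Twist1*, a basic helix-loop-helix factor of cranial and paraxial mesenchyme, was at a median of 3.19 CPM at E6.5 and of 25.04 CPM at E7.5 (log2 fold change 2.77, SE 0.42, adjusted p = 1.01e-04). The 8 E7.5 WT libraries other than E7.5 WT 3 lay above all E6.5 WT libraries for each of these 3 genes.

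*Snai1* was present at each stage, at 6.77 and 4.45 CPM in E5.5 WT, 9.84 ± 6.91 CPM at E6.5 and 21.2 ± 7.89 CPM at E7.5 (SD, n = 9 each). Its log2 fold change from E6.5 to E7.5 was 1.11 (SE 0.43, adjusted p = 0.0640) and the groups overlapped, since the 2 highest E6.5 libraries reached 17.7 and 22.3 CPM. The gene was called by DESeq2 (adjusted p = 0.0174), without the libraries that stand apart (0.0333), and without E7.5 WT 3, E6.5 WT 7 or E6.5 WT 8, with the lowest adjusted p, 0.0206, among the libraries left out in turn.

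*Snai2*, which in the mouse follows rather than starts the transition, did not pass the filter on low counts in this comparison, with at most 0.143 CPM at E6.5 WT. At E7.5 WT it ran from 0 CPM in E7.5 WT 3 and 0.885 CPM in E7.5 WT 1 to 16.9 CPM in E7.5 WT 4. With no filter on low counts it was called (adjusted p = 1.75e-04), and it could pass a filter only through the group where it was high. *Twist2* stayed at or below 3.39 CPM, with a median of 0.446 CPM at E7.5 and 0.0674 CPM at E6.5 (adjusted p = 0.201).

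The calls of *Vim*, *Fn1*, *Zeb1*, *Zeb2* and *Twist1* stood in each of the 26 other fits of this comparison. The levels of other cell types moved as well. Of 10 visceral endoderm markers 2 were called higher at E7.5 WT and none lower, with summed levels of 388 to 4140 CPM at E7.5 against 48.1 to 5603 CPM at E6.5. Of 9 epiblast markers 7 were called lower, with sums of 1150 to 3134 CPM, apart from 6660 CPM in E7.5 WT 3, against 5399 to 8391 CPM. Of 10 extraembryonic ectoderm markers 2 of 6 tested were called higher. The 10 summed to 44.9 to 114 CPM at E7.5, apart from 7.34 CPM in E7.5 WT 3, against 7.11 to 23.7 CPM at E6.5. No maternal or blood marker of 3 tested was called. The part of other cell types in the changes of the EMT genes was not tested.

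At E5.5 no EMT gene was called between genotypes. The edgeR fit of 4 against 2 libraries called 0 genes of any kind. SEs of the EMT genes reached 2.86 (*Snai2*), and *Stat3* itself had an adjusted p of 0.999. This fit therefore cannot show that levels were alike. None of the 9 EMT genes tested was called by edgeR, DESeq2 or limma voom with sample quality weights (0%, 0.0749% and 0% of 18690 genes). None had an unadjusted p under 0.05 with edgeR, beside 467 of all 18690 genes. The 4 null libraries had *Cdh1* at 1190, 729, 608 and 930 CPM and the 2 WT had 784 and 599 CPM. This was a log2 fold change of 0.33 (SE 0.28, adjusted p = 0.999). *Cdh2* was at 0, 30.7, 56.6 and 38.9 CPM in null and at 24.3 and 61.8 CPM in WT (log2 fold change -0.44, SE 1.67). The lone 0 belonged to E5.5 null 1, which also had no count of *Twist1* or *Zeb2* and the lowest *Fn1* (15.8 CPM) and *Vim* (5.49 CPM) of its stage. *Snai1* was at 4.98 to 9.49 CPM in null and at 6.77 and 4.45 CPM in WT. *Twist2* had no count in any of the 4 null libraries and *Snai2* none in 3 of them. The 10 extraembryonic ectoderm markers summed to 59.2 to 1441 CPM in null and to 24.5 and 393 CPM in WT (median log2 fold change 1.54). Visceral endoderm and epiblast markers had medians of 0.03 and -0.65. None of these markers was called, and the part of other cell types in the EMT values was not tested.

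At E6.5 again none of the 8 genes tested was called by edgeR (0% of 17095 genes), DESeq2 (0.164%) or limma voom with sample quality weights (0.538%). With edgeR 1 gene, *Snai1*, had an unadjusted p under 0.05, beside 1414 of all 17095 genes. The adhesion and matrix genes lay close together. *Cdh1* averaged 663 ± 127 CPM over the null epiblasts (SD, n = 8), as against 681 ± 65.5 CPM over WT (SD, n = 9) (log2 fold change -0.03, SE 0.09). *Vim* was at 23.3 ± 6.77 and 26.6 ± 4.38 CPM (log2 fold change -0.18, SE 0.17) and *Fn1* at 213 ± 73.3 and 267 ± 63.5 CPM (log2 fold change -0.31, SE 0.19).

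*Snai1* lay between 0.396 and 6.96 CPM in the null epiblasts, with a median of 3.605, and between 1.43 and 22.3 CPM in WT, with a median of 9.19 (log2 fold change -1.40, SE 0.55, adjusted p = 0.484). No null epiblast reached the level of the 5 highest WT libraries. *Zeb2* was between 0.958 and 7.71 CPM in null and between 0.223 and 16.5 CPM in WT (log2 fold change -1.06, SE 0.60, adjusted p = 0.713). Within the 5 null and 6 WT libraries under 40000000 counts the log2 fold changes were -2.10 for *Snai1* (SE 0.53, adjusted p = 0.0942) and -1.58 for *Zeb2* (SE 0.34, adjusted p = 0.0597). Within the 3 null and 3 WT libraries of greater depth they were 0.56 (SE 1.21) and 1.51 (SE 1.53), with an adjusted p of 1.0 for both, so the direction depended on the depth group.

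*Zeb1* at E6.5 was at 9.24 CPM in null 1 and 16.7 CPM in null 2 and at 8.23 CPM in WT 3, and at or below 2.08 CPM in the remaining 14 epiblasts. *Twist1* reached 12.6 CPM in null 3 and 9.03 CPM in WT 1, and was at or below 4.85 CPM elsewhere. *Twist2* had no count in any of the 8 null libraries, which allows up to 0.107 CPM in the smallest of them, while 4 of the 9 WT libraries had over 3 counts, up to 0.655 CPM. *Snai2* had no count in 6 of 8 null and 6 of 9 WT libraries.

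*Cdh2* was the most uneven of the adhesion genes at E6.5. It exceeded 40 CPM in 5 libraries, null 3, 4 and 8 (46.5, 70.3 and 72.0 CPM) and WT 1 and 3 (43.5 and 76.9 CPM), and lay between 7.58 and 24.7 CPM in the other 12. The same 5 libraries had the highest summed levels of the 10 visceral endoderm markers, 1599 to 6425 CPM, against 48.1 to 951 CPM in the other 12. The value of 40 CPM was chosen after the levels were seen, and whether the markers and *Cdh2* share a source was not tested. At E7.5, null 3 had 100 CPM of *Cdh2* with 246 CPM of the markers.

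**Figure D3:**
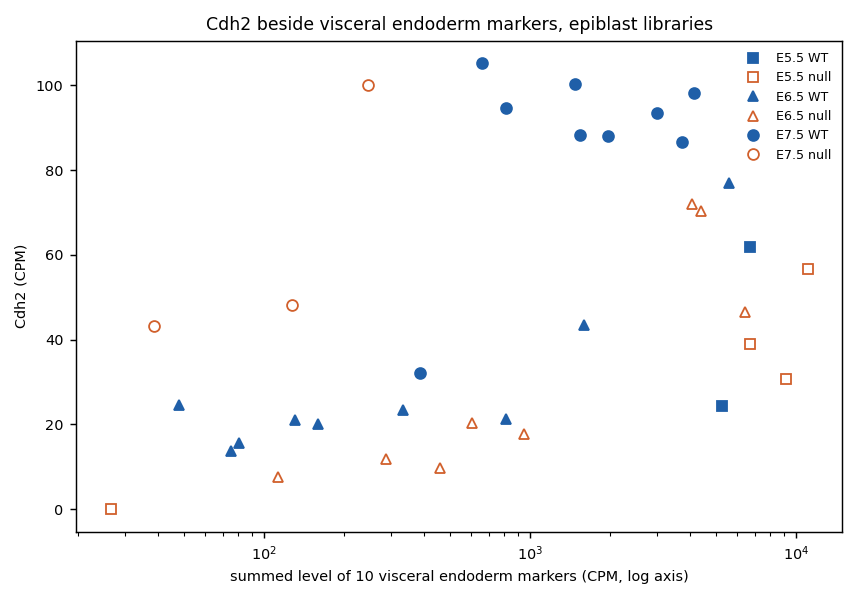
*Cdh2* (vertical axis, CPM) against the summed level of 10 visceral endoderm markers (horizontal, CPM, log axis) in the 35 epiblast libraries, with stage by symbol, WT in filled blue and *Stat3* null in open orange. The 5 E6.5 libraries above 40 CPM of *Cdh2* lay at 1599 to 6425 CPM of the markers, whereas the E7.5 libraries with 86.6 to 105 CPM of *Cdh2* spread from 246 to 4140 CPM.

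At E7.5 *Twist1* was lower in the null epiblasts than in WT, and it alone was called in the fit of 3 against 9 libraries (1 of 10 tested, against 1.17% of 19680 genes). At an unadjusted p under 0.05 there were 6 genes, beside 3874 of all 19680. The median log2 fold change of the 10 was -1.52, beside -0.02 over all genes tested. *Twist1* was at 0.873, 2.69 and 5.18 CPM in null 1, 2 and 3 and, apart from 2.75 CPM in WT 3, between 20.6 and 32.2 CPM in WT (log2 fold change -2.98, SE 0.69, adjusted p = 0.0479). This call was lost without any 1 of the 11 libraries other than WT 3 (adjusted p up to 0.203), and with no filter, with the replicate number as a block or with all 35 libraries in 1 fit (adjusted p up to 0.899).

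Without E7.5 WT 3 edgeR called 5 of the 10 (5.68% of 19462 genes), *Twist1*, *Twist2*, *Zeb1*, *Vim* and *Zeb2*, all lower in null. *Twist2* could pass the filter on low counts only through WT, where it was higher, so its call adds no support. DESeq2 called the same 5 with all libraries kept (5.03% of 19680 genes), *Twist2* again among them. How many of these genes were called therefore depended on that 1 WT library, most of whose EMT genes lay within the range of E6.5, and on the tool.

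*Vim* was at 50.3, 40.3 and 54.0 CPM in the null epiblasts, against 38.2 CPM in WT 3 and 117 to 209 CPM in the other 8 WT. Its log2 fold change was -1.56 (SE 0.40, adjusted p = 0.0623), and -1.69 (SE 0.18, adjusted p = 4.18e-05) without E7.5 WT 3. *Zeb1* was at 0.823, 0.564 and 3.31 CPM in null, against 0.154 CPM in WT 3 and 12.5 to 28.1 CPM in the others (log2 fold change -3.27, SE 1.06, adjusted p = 0.113). Without E7.5 WT 3 the adjusted p was 4.57e-04. *Zeb2* was at 22.6, 18.4 and 64.1 CPM in null, against 15.7 CPM in WT 3 and 87.3 to 141 CPM in the others (log2 fold change -1.48, SE 0.58, adjusted p = 0.184, and 0.0122 without E7.5 WT 3). For each of these 3 genes all null epiblasts lay above WT 3 and below the remaining 8 WT.

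*Twist2* had 2, 0 and 0 counts in the null libraries and 5 to 127 counts in the 8 WT libraries other than WT 3, which had none (adjusted p = 0.121, and 0.0319 without E7.5 WT 3). *Snai2* was at 0, 2.34 and 0.576 CPM in null and spread from 0 to 16.9 CPM in WT, with no separation of the groups (log2 fold change -2.34, SE 1.48, adjusted p = 0.446).

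*Snai1* and *Cdh2* did not show this order of libraries, whereas *Fn1* did. *Snai1* was at 7.90, 16.2 and 38.5 CPM in null and at 21.2 ± 7.89 CPM (SD, n = 9) in WT, with the highest value of all epiblasts in null 3 (log2 fold change 0.00, SE 0.50, adjusted p = 1.0). *Cdh2* was at 48.2, 43.1 and 100 CPM, against 32.2 to 105 CPM in WT (log2 fold change -0.43, SE 0.32, adjusted p = 0.542). *Fn1* was at 318, 472 and 1338 CPM, against 221 CPM in WT 3 and 1415 to 2083 CPM in the others (log2 fold change -1.10, SE 0.60, adjusted p = 0.365). Limma voom with sample quality weights called *Fn1* (adjusted p = 0.0127) with *Vim*, *Zeb2* and *Twist1*, 4 of the 10 (6.09% of 19680 genes). Null 3, which also had the most *T* of the 3 (170 CPM against 51.4 and 71.4), thus had *Cdh2* within and *Snai1* above the range of WT, with *Vim*, *Zeb1*, *Zeb2* and *Twist1* below each of those 8 WT epiblasts.

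*Cdh1* was at 652, 586 and 561 CPM in null and between 306 and 631 CPM in WT (log2 fold change 0.46, SE 0.17, adjusted p = 0.159). Without E7.5 WT 3 each null epiblast lay above each WT epiblast, with a log2 fold change of 0.54 (SE 0.14, adjusted p = 0.0211), under the fold of a call. The *Cdh2* to *Cdh1* ratio was 0.0739, 0.0735 and 0.178 in null, below the 0.194 to 0.305 of the 8 WT, while WT 3 had 0.0510.

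Beside these differences, the 10 visceral endoderm markers were at 128, 38.7 and 246 CPM in sum in the null libraries and at 388 to 4140 CPM in WT, and 3 of them were called lower in null. The 9 epiblast markers summed to 4930 to 6642 CPM in null, 6660 CPM in WT 3 and 1150 to 3134 CPM in the other WT, with no call. The 10 extraembryonic ectoderm markers summed to 8.98 to 13.5 CPM in null, 7.34 CPM in WT 3 and 44.9 to 114 CPM in the other WT, with no call in 7 tested. No maternal or blood marker of 6 tested was called, and *Prl3c1* and *Ptprc* had no count in either group. Their part in the EMT differences was not tested.

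**Figure D4:**
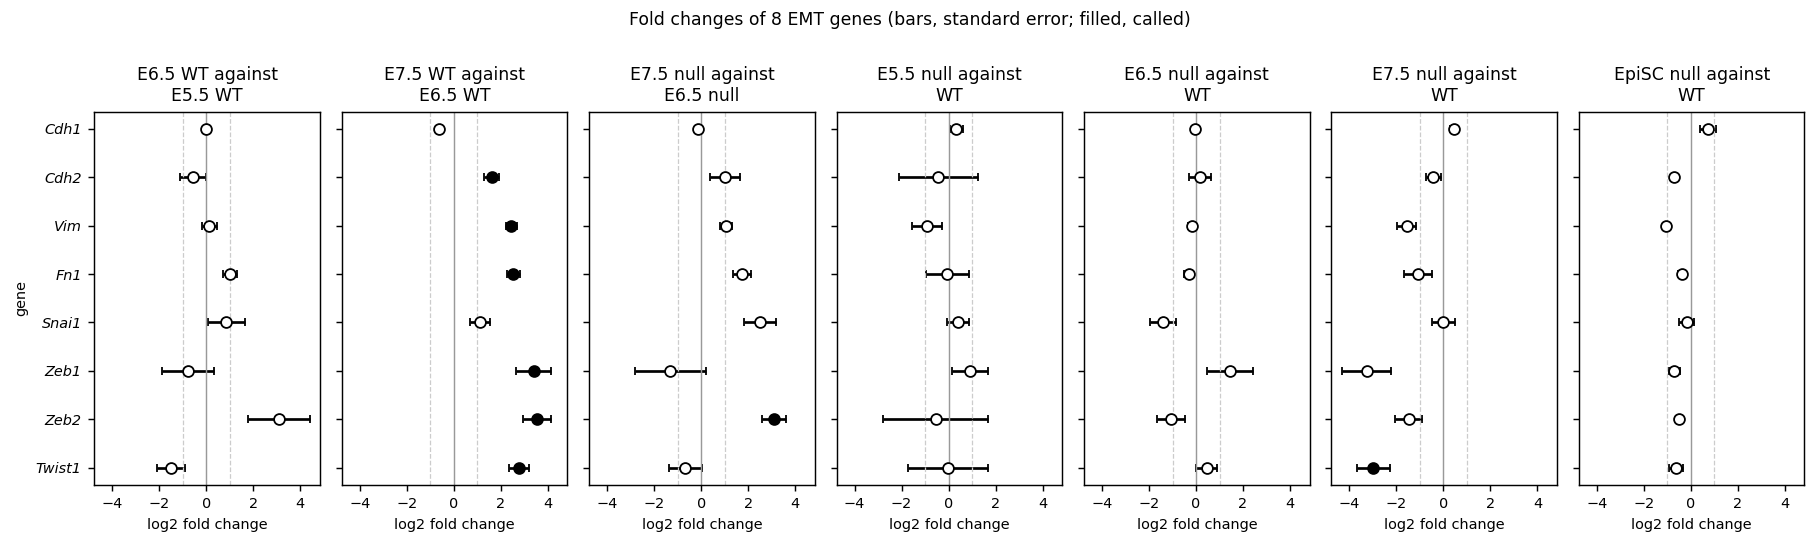
Log2 fold changes (horizontal axes, bars are standard errors) of 8 EMT genes in 7 comparisons from edgeR, with called genes filled and the fold of a call at the dashed lines; *Snai2* and *Twist2*, often at or near 0 counts, are not drawn. In WT epiblasts from E6.5 to E7.5, 6 genes were called higher, and *Zeb2* alone of these was called in the null (3.10 on the log2 scale).

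The same stage step was then examined in the null epiblasts. From E6.5 to E7.5 null, 1 of 9 genes tested was called (0.103% of 19460 genes), and it was *Zeb2*, at 4.10 ± 2.39 CPM (SD, n = 8) and 35.03 ± 25.3 CPM (SD, n = 3), with no overlap (log2 fold change 3.10, SE 0.52, adjusted p = 0.0301). The call was lost without E6.5 null 4, 5, 6 or 8 or without any of the 3 E7.5 null epiblasts (adjusted p up to 0.426), with all 35 libraries in 1 fit and with the replicate number as a block. DESeq2 called 4 of the 9, *Zeb2*, *Vim*, *Fn1* and *Snai1* (1.52% of all genes), and limma voom with sample quality weights called 3, *Zeb2*, *Vim* and *Fn1* (2.25%). *Vim* (log2 fold change 1.05, SE 0.25, adjusted p = 0.151) and *Snai1* (2.50, SE 0.67, adjusted p = 0.224) also had groups that did not overlap. *Fn1* had a log2 fold change of 1.74 (SE 0.38, adjusted p = 0.133). *Twist1* (-0.67, SE 0.69) and *Zeb1* (-1.32, SE 1.51) had negative values with errors of the same size. The 10 visceral endoderm markers summed to 114 to 6425 CPM at E6.5 null and 38.7 to 246 CPM at E7.5 null (median log2 fold change -3.80). The 10 extraembryonic ectoderm markers summed to 9.80 to 937 and 8.98 to 13.5 CPM (median -3.17), and epiblast markers had a median of 0.03. None of these markers was called, and the part of other cell types in the EMT values was not tested.

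Against E6.5 WT none of 9 EMT genes was called in E7.5 null by edgeR (0.162% of 19749 genes). An unadjusted p under 0.05 was found for 5, beside 1752 of all 19749 genes. DESeq2 called 1, *Fn1* (1.15%), and limma voom with sample quality weights called 1, *Cdh2* (1.6%), which edgeR also called without E6.5 WT 3 (adjusted p = 0.0456). *Vim* differed by 0.87 on the log2 scale (SE 0.14, adjusted p = 0.0314) with no overlap, with 48.2 ± 7.11 CPM (SD, n = 3) compared to 26.6 ± 4.38 CPM (SD, n = 9), which passed the test but not the fold of a call. *Zeb2* did not overlap either (log2 fold change 2.03, SE 0.84, adjusted p = 0.495). For *Twist1* the log2 fold change was -0.22 (SE 0.64) and for *Zeb1* 0.12 (SE 1.0). Visceral endoderm markers had a median log2 fold change of -2.66, extraembryonic ectoderm markers of -0.71 and epiblast markers of -0.16. None of these markers was called, and the part of other cell types in the EMT values was not tested. This comparison shares its null libraries with that of null and WT at E7.5, and its WT libraries with that of the WT stages.

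Whether the genotype difference changed from E6.5 to E7.5 was tested as an interaction over the 4 groups of these stages. *Twist1* was called (1 of 10 genes, against 0.443% of 22122), with an interaction of -3.45 on the log2 scale (SE 0.79, adjusted p = 0.0441). That call was lost in 20 of the 29 fits without 1 library, which included each null epiblast of E7.5 (adjusted p up to 0.187). *Vim* had an interaction of -1.40 (SE 0.36, adjusted p = 0.0623) and was called without E6.5 null 1, E6.5 WT 3 or E7.5 WT 3, the lowest adjusted p being 6.92e-04. *Zeb1* had -4.75 (SE 1.70, adjusted p = 0.168) and was called without E6.5 WT 3 (adjusted p = 0.0343). For *Cdh1* (0.47, SE 0.19), *Zeb2* (-0.44, SE 0.92), *Cdh2* (-0.61, SE 0.72), *Fn1* (-0.80, SE 0.53) and *Snai1* (1.38, SE 0.79) no fit called an interaction.

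EpiSC lines had counts of all 10 genes. Per kilobase, *Vim* was the most abundant of the 10 in WT lines at 58.7 ± 1.67 CPM per kb (SD, n = 2), not separated by its SD from *Cdh1* at 56.0 ± 23.4 CPM per kb, and *Fn1* followed at 14.8 ± 3.67 CPM per kb. *Zeb1* was at 58.9 and 46.0 CPM in WT lines 8 and 13 and at 38.5 and 25.9 CPM in null lines 2 and 6, where no epiblast exceeded 28.1 CPM. *Snai1* stayed at 2.50 to 4.75 CPM and *Twist1* at 1.47 to 3.01 CPM in the 4 lines. The lines were counted in another table and prepared with another kit, so these levels are set beside the epiblasts without a test.

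Between null and WT lines none of the 10 genes was called by edgeR (0.106% of 20736 genes) or limma voom with sample quality weights (0.0772%), and DESeq2 called 1, *Vim* (0.989%). At an unadjusted p under 0.05 there were 4, all lower in null, beside 1885 of all 20736 genes. *Vim* was at 118 and 153 CPM in null and 273 and 284 CPM in WT (log2 fold change -1.04, SE 0.12, adjusted p = 0.0683). It was also called with no filter on low counts and without null line 6, with adjusted p of 0.0129 in the latter. *Cdh2* was at 39.6 and 37.7 CPM in null and 60.0 and 66.2 CPM in WT (log2 fold change -0.71, SE 0.09, adjusted p = 0.0645). *Zeb1* differed by -0.71 (SE 0.23, adjusted p = 0.484) and *Zeb2* by -0.51 (SE 0.10, adjusted p = 0.186). Neither overlapped between genotypes, but with 2 lines each this adds no support, and the share over all genes was not counted. *Cdh1* was at 385 and 473 CPM in null and 180 and 332 CPM in WT (log2 fold change 0.74, SE 0.35, adjusted p = 0.693), and was called without WT line 13 (adjusted p = 0.0484). Each of these fits without a line leaves 1 line of that genotype, assumed to vary like the other genotype's. With 2 lines a genotype, a difference between genotypes cannot be told apart from differences between lines.

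Other genes of the pathway were read from lists of 22 epithelial, 18 mesenchymal and 16 gastrulation genes. In WT epiblasts from E6.5 to E7.5, 6 of 15 mesenchymal genes tested were called higher and none lower (8.83% of all genes were called), with a median log2 fold change of 0.98 beside 0.01 over all genes. *Pdgfra*, a growth factor receptor gene of nascent mesoderm, rose by 3.92 (SE 0.55, adjusted p = 8.93e-05), and the mesenchymal homeobox gene *Prrx1* by 7.77 (SE 1.09, adjusted p = 5.82e-05). *Foxc2*, a forkhead factor of paraxial mesoderm, had no count in any E6.5 WT library and was at 40.002 ± 18.8 CPM (SD, n = 9) at E7.5. *Prrx1* was at 0.0476 ± 0.11 CPM (SD, n = 9) at E6.5 WT. Both *Foxc2* and *Prrx1* could pass the filter on low counts only through E7.5, where they were higher, so their calls add no support. The collagen gene *Col1a2* rose by 1.49 (SE 0.36, adjusted p = 0.00421).

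Of 22 epithelial genes, 3 were called higher and 1 lower at E7.5 WT (median log2 fold change -0.27), against 8.83% of all genes. The desmosomal gene *Dsp* and the simple keratins *Krt8* and *Krt18* rose by 2.18, 2.08 and 1.06 (adjusted p = 1.96e-05, 4.43e-04 and 0.00746). *Grhl2*, a transcription factor of epithelial identity, fell by 1.03 on the log2 scale (SE 0.11, adjusted p = 5.19e-06). Visceral endoderm also expresses these keratins, and 2 of its markers were called higher in this comparison, as given above; their part in the keratin values was not tested.

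Of 15 gastrulation genes tested, 4 were called higher and 4 lower, against 8.83% of all genes in either direction. The FGF receptor gene *Fgfr1* rose by 1.21 (SE 0.14, adjusted p = 1.31e-05) and the polarity gene *Crb2*, needed for cells to leave the streak, by 2.201 (SE 0.35, adjusted p = 1.74e-04). *Tbx6*, a T-box factor of paraxial mesoderm, rose by 3.94 (SE 0.69, adjusted p = 4.58e-04). The TGF-beta ligand gene *Nodal* fell by 2.87 on the log2 scale (SE 0.43, adjusted p = 8.69e-05).

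Between E5.5 and E6.5 WT, where 5.15% of all genes were called, 3 of 22 epithelial genes were called lower (*Jup*, *Dsp* and *Cldn4*), 2 of 14 mesenchymal genes higher and 4 lower, and 1 of 15 gastrulation genes higher (*Crb2*, log2 fold change 2.35, adjusted p = 0.00896). *Tcf4* was among the higher mesenchymal genes (log2 fold change 1.40, SE 0.15, adjusted p = 4.84e-04). *Lgals1*, *Itga5* and *Pdgfra* were among the lower ones (-2.49, -1.43 and -2.49).

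Between E7.5 null and WT, where 1.17% of all genes were called, no mesenchymal gene of 16 tested was called. Of these, 15 had a log2 fold change below 0 (median -0.78, beside -0.02 over all genes). Among 22 epithelial genes *Krt18* and *Krt8* were called lower in null, by -1.62 (SE 0.26, adjusted p = 0.0200) and -1.86 (SE 0.40, adjusted p = 0.0446). Of 10 visceral endoderm markers 3 were also called lower (median log2 fold change -3.69), and their part in the keratin values was not tested. Of 16 gastrulation genes, *Wnt3*, a ligand gene that starts the streak, was higher in null (2.14, SE 0.45, adjusted p = 0.0337), averaging 18.7 ± 4.83 CPM over null (SD, n = 3) but 4.27 ± 2.63 CPM over WT (SD, n = 9). *Msgn1*, a presomitic mesoderm factor, had no count in the 3 null libraries and was at 15.9 ± 7.89 CPM (SD, n = 9) in WT (adjusted p = 0.0452). It could pass the filter on low counts only through WT, so its call adds no support. The interaction, with 0.443% of all genes called, called *Dsp*, *Krt8* and *Krt18* (-3.25, -3.03 and -2.46) among 22 epithelial genes. Among 16 gastrulation genes it called *Msgn1*, which had no count in E7.5 null, so that call adds no support.

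No gene of the 3 lists was called between genotypes at E5.5 or E6.5, between E6.5 and E7.5 null, or when E7.5 null was set against E6.5 WT. In EpiSCs 1 of 22 epithelial genes was called (0.106% of all genes were called), the claudin gene *Cldn7*. It was higher in null (log2 fold change 3.13, SE 0.15, adjusted p = 0.00162), at 27.8 ± 1.35 CPM against 3.16 ± 0.448 CPM (SD, n = 2 each). There 16 of 17 mesenchymal genes tested had a log2 fold change below 0, with a median of -0.997, beside -0.01 over all genes, but none was called.

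**Figure D5:**
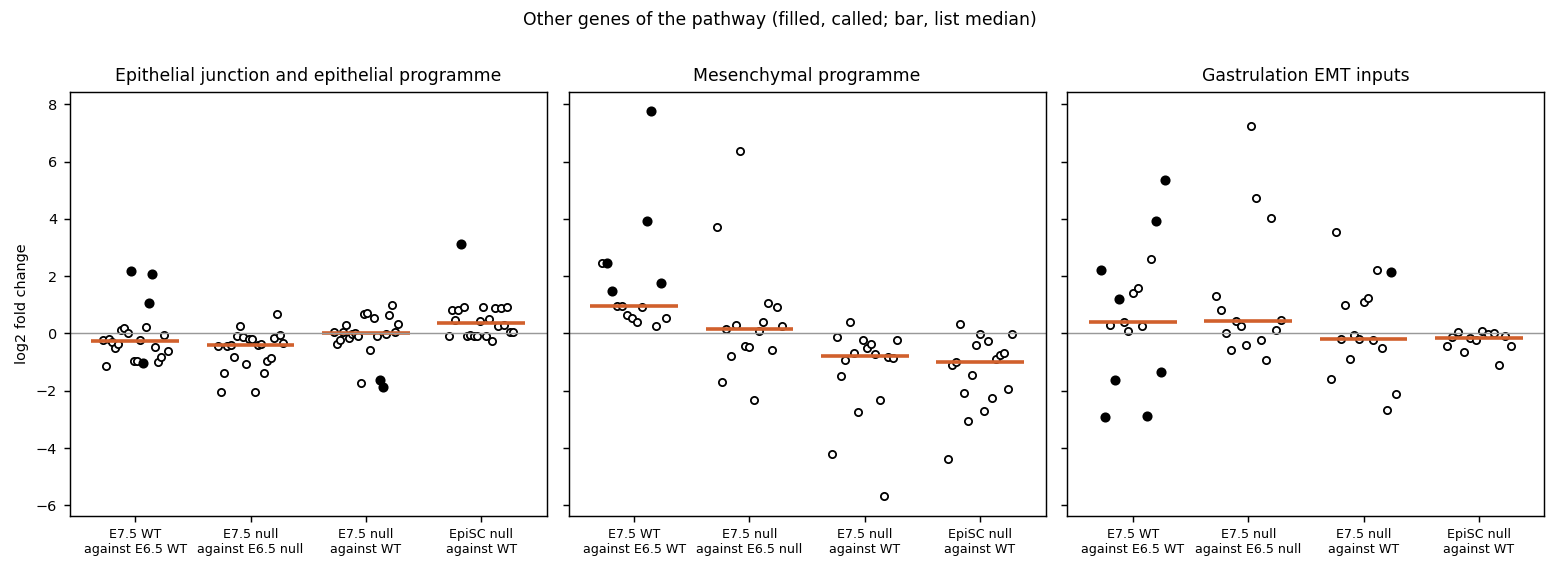
Log2 fold changes (vertical axis) of the genes of 3 pathway lists in 4 comparisons; each circle is a gene, filled where called, and the orange bar is the list's median. Genes with 3 counts or fewer in every library of a group are not drawn; mesenchymal genes had medians of 0.98 in WT epiblasts from E6.5 to E7.5 and -0.78 in E7.5 null against WT.

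The genes whose log2 CPM followed each member most closely across the 35 epiblast libraries were named as a description, since these libraries share stages and composition. *Vim* and *Fn1* were each among the 3 closest genes of the other (Pearson's r = 0.94, n = 35), and *Spred1* was among the closest 3 of both (0.90 and 0.93). *Fn1* was closest to *Prtg* (0.95). *Hipk2* (0.96) and *Pxdn* (0.95) were among the 3 closest genes of *Cdh2*. *Snai1* had *Heg1* (0.86), *Phc2* (0.83) and *Rab8b* (0.82), and *Cdh1* had *Eif2s2*, *Hsp90aa1* and *Hspa9* (0.89 each).

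Positions of the 10 genes were read from GENCODE M21 on GRCm38. *Cdh1* lies at chr8:106603351-106670246, *Vim* at chr2:13573927-13582826, *Snai1* at chr2:167538195-167542814, *Snai2* at chr16:14705852-14709385, *Twist1* at chr12:33957671-33959829 and *Twist2* at chr1:91801461-91848028, all on the plus strand. *Zeb1* lies on the plus strand of chr18 at 5591860-5775467. *Fn1* (chr1:71585520-71653200), *Cdh2* (chr18:16588877-16809246) and *Zeb2* (chr2:44983632-45117395) lie on the minus strand. Exons of *Fn1*, *Zeb1*, *Zeb2* and *Twist2* overlap antisense genes (*Apol7d*, *Gm10125*, *Zeb2os* with *Gm27761*, and *Gm29100*), and *Zeb2* holds *Mir5129* on its own strand. The strand setting of the counting is not given in the sources used here, so counts of these 4 genes could include antisense reads.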

How the data were processed

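Libraries of single epiblasts were made with the SMARTer Stranded Total RNA-Seq Kit v2, those of EpiSC lines with NEBNext Ultra II after ribosomal RNA removal. Per the labels and the study's methods, reads were trimmed with Trim Galore and aligned to GRCm38/mm10 with HISAT2 (v2.2.1). The authors counted reads per gene with StringTie (v2.1.4) and deposited whole-number counts, not normalised, in 1 table of 35 epiblast libraries and 1 of 4 EpiSC libraries. The annotation version and strand setting are not given in the sources used here. Nothing in the labels says which embryos shared a litter, so p-values measure the spread between these libraries.

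The quasi-likelihood test of edgeR 4.0.16 (R 4.3.3) was run two-sided on TMM-normalised counts after filterByExpr (at least 10 counts, total of at least 15), with robust fits of the groups compared, and p-values were adjusted by Benjamini-Hochberg over every gene tested. Genes were called at an adjusted p under 0.05 where the log2 fold change exceeded 1 in either direction. SE is the fold change divided by the square root of F. Alternatives were DESeq2 1.42.0, limma 3.58.1 (voom with sample quality weights), RLE size factors, no filter, no genes over 1% of counts, the replicate number as a block, all 35 libraries in 1 fit, depth groups at 40000000 counts for E6.5, no libraries that stand apart and each library left out in turn. The script was tested on simulated data. PCR copies are not independent molecules, so the limit of 3 counts covers counting error only.

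The 10 genes are named in every comparison, and from each list the called genes with the smallest p, at most 4 in a comparison. Likeness was Pearson's r of log2 CPM (prior count 2) over genes with a mean count of at least 50. For *Cdh2*, 1 of its 3 closest genes is not reported here. The members, lists and markers were chosen with earlier results of these data known. Of 47643 genes, 47224 were found in GENCODE M21, which gave positions and exon lengths; *Snai2*, *Zeb1* and *Twist1* carry another version of their ID. Figures used matplotlib 3.10.9 (Python 3.11.15).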

Additional observations from a re-analysis of the deposited data

Results flagged for a closer look

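In groups of 4 to 10 libraries, the highest or lowest value of a member was compared with its nearest neighbour relative to the range of the group on a log2(CPM + 1) scale. No rate by chance is given for these flags, since it depends on how the values of a group are spread. The groups also share libraries, so their flags are not independent. The number flagged therefore cannot be set against a rate. Of 40 groups tested, 13 gave a value set far from the rest. Of these, 7 came from E7.5 WT 3, which was the lowest of its group in *Cdh2* (32.2 CPM), *Vim* (38.2 CPM), *Fn1* (221 CPM), *Snai1* (4.09 CPM), *Zeb1* (0.154 CPM), *Zeb2* (15.7 CPM) and *Twist1* (2.75 CPM).

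*Cdh1* was set apart in E6.5 null 1 (highest, 949 CPM). *Cdh2* was set apart in E5.5 null 1 (lowest, 0 CPM). *Vim* was highest in E6.5 WT 4 (37.3 CPM), *Zeb1* in E6.5 WT 3 (8.23 CPM) and *Twist1* in E6.5 null 3 (12.6 CPM). *Snai2* was present in 1 of the 4 E5.5 null libraries (0.731 CPM in null 2), and the 0 counts of the other 3 fixed this flag.

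The genotype difference of *Twist1* was called as different between E6.5 and E7.5, with an interaction of -3.45 on the log2 scale (adjusted p = 0.0441, edgeR). The call was lost in 20 of 29 fits without 1 library, and with no filter, the replicate block or all 35 libraries in 1 fit.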

How the results depend on the processing

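The direction of each called fold change of the 10 genes was the same under each alternative run. Of 1757 gene-level results under alternatives, 1655 stayed on the same side of the call, 47 lost a call and 55 gained one. In 55 a fold change that was not called had the other sign. The number of the 10 genes called was stable from E6.5 to E7.5 WT (6 to 8) and at E5.5 and E6.5 between genotypes (0). Elsewhere it depended on the fit, and the cause was not tested. The share of all genes called moved with the tool as well. With edgeR, DESeq2 and voom weights it was 1.17%, 5.03% and 6.09% at E7.5 between genotypes. It was 0.103%, 1.52% and 2.25% from E6.5 to E7.5 null, and 0.106%, 0.989% and 0.0772% in EpiSCs. No such share is given here for the replicate block, no filter, all 35 libraries in 1 fit or the fits without the libraries that stand apart. It is also not given for the fits with 1 library left out, except E7.5 without E7.5 WT 3 (5.68%), or for the other fits of the interaction. Those counts lack this comparison and cannot be read as results about the 10 genes. At E7.5 null against WT the count of 1 became 5 with DESeq2, 4 with voom weights, 0 with no filter, 0 with all 35 libraries in 1 fit, 5 without the libraries that stand apart, and 0 to 5 with 1 library left out. From E5.5 to E6.5 WT the count of 0 became 2 with DESeq2, 2 with voom weights, 1 without the libraries that stand apart, and 0 to 2 with 1 library left out. From E6.5 to E7.5 null the count of 1 became 4 with DESeq2 and 3 with voom weights, and 0 to 1 with 1 library left out. For E7.5 null against E6.5 WT the count of 0 became 1 with DESeq2, voom weights or without the libraries that stand apart, and 0 to 1 with 1 left out. The interaction count of 1 became 3 with DESeq2, 2 with voom weights, 3 without the libraries that stand apart, 0 with no filter, 0 with all 35 libraries, and 0 to 3 with 1 left out. In EpiSCs the count of 0 became 1 with DESeq2 or no filter, and 0 to 1 with 1 left out.

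Replicate numbers shared between groups did not pair the libraries: correlations of the deviations of same-numbered libraries ran from -0.323 to 0.269. With the replicate number as a block the counts were 0 at E5.5 and E6.5 between genotypes, 0 at E7.5, 0 from E5.5 to E6.5 WT, 6 from E6.5 to E7.5 WT, 0 from E6.5 to E7.5 null, 2 for E7.5 null against E6.5 WT and 0 for the interaction. EpiSC lines share no number. RLE size factors moved no group mean of the 10 genes by more than its SD.

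*Snai2* and *Twist2* had no count in many libraries before E7.5, where a count of 0 allows up to 0.131 CPM in the smallest library.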
